A study of Mus musculus with 2 samples.

Results

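The lysosomal hydrolases and cathepsins are the soluble acid enzymes with which a macrophage takes apart what it has engulfed. The 33 genes described here were listed by name and kept where at least 1 library held 1 CPM or more (counts per 1000000, scaled between libraries by the trimmed mean of M values, TMM), and all 33 were kept, of 12779 genes that passed the same minimum. They comprise 11 proteases, 11 glycosidases, 5 sulfatases and 6 enzymes of lipids. RNA with poly(A) tails was sequenced from macrophages grown in culture out of bone marrow precursors of C57BL/6J mice. The tested cultures received CANDI470, known here only by this code name, at 1 mg/mL on culture day 7, with RNA taken 12 h later. The control culture was given PBS. Each group is 1 sample, both groups share strain and cell type, and cultures given empty CANDI are not analysed here, so whatever empty CANDI does on its own cannot be told apart from CANDI470.

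Most of these enzymes are made in the endoplasmic reticulum, tagged with mannose 6-phosphate in the Golgi and carried to the lysosome, where the low pH activates them. Cathepsins cut proteins, and in phagocytes they also trim the peptides and the invariant chain of MHC class II presentation. Glycosidases and sulfatases remove sugars and sulfate groups in a fixed order from glycoproteins, glycolipids and glycosaminoglycans, so that the loss of a single enzyme halts a whole chain and causes a storage disease. The lipases, sphingolipid enzymes and thioesterase release fatty acids, cholesterol and sphingosine.

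Depth was 41646905 gene counts in the CANDI470 library and 28442450 in that of the PBS control, and mitochondrial genes took 0.835% of counts in CANDI470 and 2.88% in the PBS control. The part of this in any gene's difference was not tested. With 1 library a group there was no replicate check and no test, so "higher" and "lower" below compare these libraries, and a difference of 2-fold is a rule of size. The intervals given are 95% exact (Clopper-Pearson) intervals of the CPM ratio and cover counting error only, because each group is 1 library. No molecular identifiers show which reads came from separate molecules, so even that error may be understated. Both tables gave the same length for 32 of the 33 genes, Lipa being the exception, although the tables rest on different annotations. The treatment cannot be told apart from how each library was made and counted. All 9 macrophage markers had counts in both libraries and summed to 14088 CPM in CANDI470 and 20936 CPM in the PBS control. Fcgr1, an antibody receptor, stood at 1267 CPM in CANDI470 and 216 CPM in the PBS control, and Cd14, the co-receptor for lipopolysaccharide, at 2433 CPM in CANDI470 and 612 CPM in the PBS control. Cd68 stood at 1115 CPM in CANDI470 and 1314 CPM in the PBS control. Csf1r, the receptor for the macrophage growth factor, stood at 560.4 CPM in CANDI470 and 2653 CPM in the PBS control.

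Among the 33 genes, 5 cysteine cathepsins and the glycosidase Gla were higher in the CANDI470 library by 2-fold or more, and 13 of the 22 sugar-, sulfate- and lipid-cleaving enzymes were at least 2-fold lower. On the log2(CPM + 1) scale 6 genes exceeded the PBS control at least 2-fold, namely Ctsc, Ctsl, Ctsk, Ctsh, Ctsz and Gla. They make up 18.2% of the genes, beside 25.7% of all 12779 genes tested. At least 2-fold lower were 14 genes, or 42.4%, beside 23.6% of all genes tested. Beyond 4-fold lay 4 higher and 8 lower genes, beside 11.5% and 7.36% of all genes. The median difference of the 33 genes was -0.91, against -0.01 for all genes tested, and single genes ran from 3.95 for Ctsc to -5.67 for Sgsh.

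**Figure D1:**
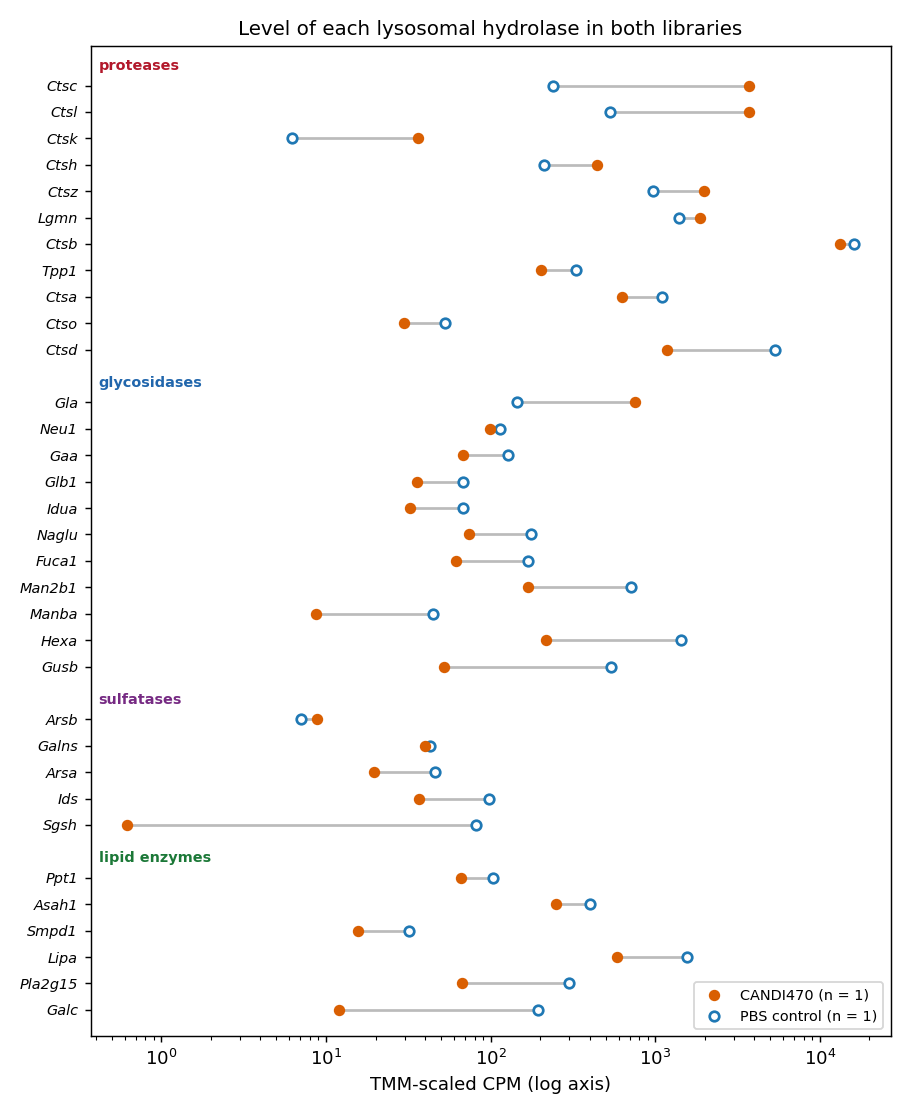
TMM-scaled CPM of each of the 33 genes on a log axis, with filled points for the CANDI470 library and open points for the PBS control library (n = 1 each), grouped by enzyme class and ordered within it by the difference. The filled point lies to the right for 6 of 11 proteases but for only Gla among the 11 glycosidases and only Arsb among the 5 sulfatases, and for none of the 6 lipid enzymes.

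Within this list, the proteases at least 2-fold higher were all cysteine proteases. Of the 8 cysteine proteases 5, or 62.5%, lay at least 2-fold above the PBS control and 0 below, with a median difference of 1.04. Among all genes tested 25.7% were at least 2-fold higher and 23.6% lower. Outside the list, cysteine and serine proteases, given below, each lay on both sides. All 3 aspartic and serine proteases had negative differences, with a median of -0.80, but only Ctsd among them was past 2-fold, and the cysteine proteases Ctsb and Ctso were negative too. Ctsc, the dipeptidyl peptidase that activates granule serine proteases, had 120679 counts or 3729.7 CPM in CANDI470, against 8680 counts or 239.7 CPM in the PBS control. Its CPM ratio of 15.6 (interval 15.2 to 15.9) was the highest of the 33 genes. Ctsl, a broad endopeptidase, had 119887 counts or 3705 CPM in CANDI470, against 19164 counts or 529 CPM in the PBS control, a ratio of 7.00 (6.90 to 7.11).

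Ctsk, the collagen-cleaving cathepsin best known from osteoclasts, was far scarcer. It had 1171 counts or 36.2 CPM in CANDI470, against 224 counts or 6.19 CPM in the PBS control, a ratio of 5.85 (5.07 to 6.78). Of 7 osteoclast markers 6 passed the minimum, and 4 of these exceeded the PBS control at least 2-fold while Nfatc1 was lower, at 8.41 against 60.3 CPM. The 4 make up 66.7% of those that passed, beside 25.7% of all genes tested. The list summed to 429 CPM in CANDI470 and 147 CPM in the PBS control, with the osteoclast acid phosphatase Acp5 at 107 CPM in CANDI470 and 5.08 CPM in the PBS control and the calcitonin receptor Calcr at 6 counts in CANDI470 and 2 in the PBS control. Fibroblasts also make Ctsk, and of their 7 markers 4 passed the minimum and all 4 were higher, the list summing to 9.02 CPM in CANDI470 and 0.0276 CPM in the PBS control, with 1 marker at 0 counts in CANDI470 and 6 in the PBS control. The part of such cells in the Ctsk difference was not tested, and more cells of a type cannot be told apart from more RNA per cell.

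Near the 2-fold line were 2 exopeptidases. Ctsh, an aminopeptidase, had 14265 counts or 441 CPM in CANDI470, against 7640 counts or 211 CPM in the PBS control, a ratio of 2.09 (2.03 to 2.15). Ctsz, a carboxypeptidase, had 63887 counts or 1974 CPM in CANDI470, against 35053 counts or 968 CPM in the PBS control, a ratio of 2.04 (2.01 to 2.07). Both lay inside 2-fold under other scalings, with log2 differences for Ctsh of 0.96 with no filter on low counts, 0.69 with upper-quartile factors and 0.35 with library totals, and for Ctsz of 0.92, 0.66 and 0.32. Lgmn, the asparaginyl endopeptidase, had 1868 CPM in CANDI470 and 1394 CPM in the PBS control, a log2 difference of 0.42 that turned to -0.29 under scaling by library totals.

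Ctsb, an endopeptidase and dipeptidyl carboxypeptidase, had more counts than any other of the 33 genes in both libraries. It had 431729 counts or 13343 CPM in CANDI470, against 585601 counts or 16170 CPM in the PBS control, a ratio of 0.825 (0.822 to 0.828). Ctso, a little-studied cysteine cathepsin, had 29.6 CPM in CANDI470 and 53.2 CPM in the PBS control. These were the only cysteine proteases of the 8 with a negative difference.

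Ctsd, the aspartic endopeptidase of the lysosome, was the protease farthest down. It had 38251 counts or 1182 CPM in CANDI470, against 194332 counts or 5366 CPM in the PBS control, a ratio of 0.22 (0.218 to 0.223). Ctsa, a serine carboxypeptidase that also shields Glb1 and Neu1 from breakdown, had 625 CPM in CANDI470 and 1093 CPM in the PBS control. Its gene model overlaps that of Pltp, which had 11599 counts in CANDI470 and 47185 in the PBS control, and the strand setting of the counting is not given in the sources used here, so reads of the overlap cannot be assigned. Tpp1, which removes tripeptides, had 203 CPM in CANDI470 and 330.4 CPM in the PBS control. The log2 differences of Ctsa and Tpp1, -0.80 and -0.70, stayed within 2-fold.

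Because the cathepsins diverged, the mix within a library differed in a way that needs no scaling between libraries. Per 1000 counts of Ctsd there were 3134 counts of Ctsl in CANDI470, against 98.6 in the PBS control, 31.8 times as many. For Ctsc the same figures were 3155 in CANDI470 and 44.7 in the PBS control, a 70.6-fold difference. Per 1000 counts of Ctsb there were 278 counts of Ctsl in CANDI470, against 32.7 in the PBS control. Such ratios do not remove base composition, as GC content was 41.1% for Ctsc, 44.3% for Ctsl and 55.9% for Ctsd. With GC and length trends removed, the log2 differences of these genes were 3.34, 2.22 and -1.59, against 3.95, 2.81 and -2.18 as reported.

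Of the 11 glycosidases 7, or 63.6%, were at least 2-fold lower in CANDI470, beside 23.6% of all genes tested. Only 1, or 9.09%, was at least 2-fold higher, beside 25.7% of all genes tested, and the median difference was -1.23. Gla, the alpha-galactosidase that trims globotriaosylceramide and is missing in Fabry disease, was the exception. It had 24428 counts or 755 CPM in CANDI470, against 5272 counts or 146 CPM in the PBS control, a ratio of 5.19 (5.03 to 5.34). At the other end stood Gusb, the beta-glucuronidase, with 1695 counts or 52.4 CPM in CANDI470 and 19406 counts or 536 CPM in the PBS control. Its ratio of 0.0978 (0.093 to 0.103) made it 10.2-fold lower. Hexa, which encodes the alpha subunit of the hexosaminidase that degrades gangliosides, had 7006 counts or 217 CPM in CANDI470, against 51646 counts or 1426 CPM in the PBS control, and was 6.59-fold lower (ratio interval 0.148 to 0.156). The order of Gla and Hexa was thus reversed, with 3487 counts of Gla per 1000 of Hexa in CANDI470 and 102 in the PBS control. Per kilobase of gene model Gla had 231 and Hexa 108 CPM in CANDI470, against 44.6 and 714 in the PBS control.

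The enzymes that strip mannose and fucose from N-glycans were lower as well. Man2b1, the acid alpha-mannosidase, had 5485 counts or 169.5 CPM in CANDI470, against 25912 counts or 715 CPM in the PBS control, 4.22-fold lower. Manba, the beta-mannosidase, had 281 counts or 8.68 CPM in CANDI470, against 1613 counts or 44.5 CPM in the PBS control, 5.13-fold lower. Fuca1, the alpha-fucosidase, had 61.3 CPM in CANDI470 and 169 CPM in the PBS control, 2.76-fold lower. Together with Hexa they are the 4 that were at least 2-fold lower among 6 genes of N-glycan breakdown. These are 66.7%, beside 23.6% of all genes tested. The others are Neu1, the sialidase, with 98.9 CPM in CANDI470 and 114 CPM in the PBS control, and Glb1, the beta-galactosidase, with 35.8 CPM in CANDI470 and 68.2 in the PBS control. Gaa, the acid alpha-glucosidase that clears glycogen and is missing in Pompe disease, had 67.9 CPM in CANDI470 and 128 CPM in the PBS control. The log2 differences of Neu1, Gaa and Glb1 were -0.20, -0.91 and -0.91, within 2-fold, and those of Neu1 and Gaa turned positive when trends in GC content and length were removed.

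Heparan sulfate is degraded by a fixed sequence of exoenzymes. All 5 of them in the list were at least 2-fold lower in CANDI470, beside 23.6% of all genes tested. Their median was -1.39. Ids, which removes the first sulfate from iduronate, had 1184 counts or 36.6 CPM in CANDI470, against 3522 counts or 97.3 CPM in the PBS control, 2.66-fold lower. Idua, the iduronidase that acts next, had 32.5 CPM in CANDI470 and 67.7 CPM in the PBS control, a log2 difference of -1.03. Naglu, the N-acetylglucosaminidase, had 74.3 CPM in CANDI470 and 176 CPM in the PBS control, 2.37-fold lower. Gusb, given above, completes the set with Sgsh. The difference of Naglu was -0.14, and that of Idua -0.53, once GC and length trends had been removed. Idua was also just inside 2-fold with DESeq2 size factors and with a pseudocount of 5 CPM, at -0.95 each, and per kilobase, at -0.97.

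Sgsh, the sulfamidase, was lowest of all relative to the PBS control. It had 20 counts or 0.618 CPM in CANDI470, against 2946 counts or 81.3 CPM in the PBS control. The CPM ratio was 0.0076 (interval 0.00463 to 0.0118), which is 132-fold lower and, on the log2(CPM + 1) scale, -5.67. The gene lies on chromosome 11 from 119343425 to 119355536 on the minus strand (GRCm38, as listed for the control), and its model was 4414 bases long in both tables. Card14, which overlaps it on the other strand, had 0 counts in CANDI470 and 15 in the PBS control. No other of the 33 genes had fewer than 281 counts in CANDI470.

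The other sulfatases were closer to the middle. Arsa, which desulfates sulfatide, had 637 counts or 19.7 CPM in CANDI470, against 1668 counts or 46.1 CPM in the PBS control, 2.34-fold lower. Arsb, which acts on dermatan sulfate, had 284 counts or 8.78 CPM in CANDI470, against 257 counts or 7.10 CPM in the PBS control. Galns, which acts on keratan sulfate, had 1289 counts or 39.8 CPM in CANDI470, against 1550 counts or 42.8 CPM in the PBS control, and its ratio interval of 0.864 to 1.00 reached equality. With GC and length trends removed Arsa was at -0.62, within 2-fold. The directions of Arsb and Galns were not firm, since Arsb turned negative under library totals and upper-quartile scaling and Galns turned positive with GC and length trends removed.

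All 6 lipid enzymes had lower CPM in CANDI470, with a median difference of -1.19. At least 2-fold lower were 3 of them, or 50%, beside 23.6% of all genes tested. Galc, which cleaves galactose from galactosylceramide and is missing in Krabbe disease, had 387 counts or 12.0 CPM in CANDI470, against 7042 counts or 194 CPM in the PBS control. It was 16.3-fold lower (ratio 0.0615, interval 0.0554 to 0.0681). Pla2g15, the lysosomal phospholipase, had 2172 counts or 67.1 CPM in CANDI470, against 10894 counts or 301 CPM in the PBS control, 4.48-fold lower. Lipa, the acid lipase that frees cholesterol from its esters, had 19045 counts or 589 CPM in CANDI470, against 56372 counts or 1557 CPM in the PBS control, 2.64-fold lower. Its gene model was longer in the CANDI470 table, 6780 against 2969 bases, so that per kilobase the levels were 86.8 CPM in CANDI470 and 524 in the PBS control.

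The remaining lipid enzymes lay within 2-fold on the log2(CPM + 1) scale. Smpd1, the acid sphingomyelinase, had 506 counts or 15.6 CPM in CANDI470, against 1157 counts or 31.9 CPM in the PBS control, a log2 difference of -0.99 just inside the line. Asah1, the acid ceramidase, had 248 CPM in CANDI470 and 399 CPM in the PBS control, a log2 difference of -0.68. Ppt1, which removes palmitate from proteins, had 66.4 CPM in CANDI470 and 104 CPM in the PBS control, a log2 difference of -0.64, and its model overlaps the well-expressed Cap1 at 14554 counts in CANDI470 and 18183 in the PBS control. Per 1000 counts of Asah1 there were 48.2 counts of Galc in CANDI470, against 487 in the PBS control, so the enzymes of sphingolipid breakdown did not move in step.

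**Figure D2:**
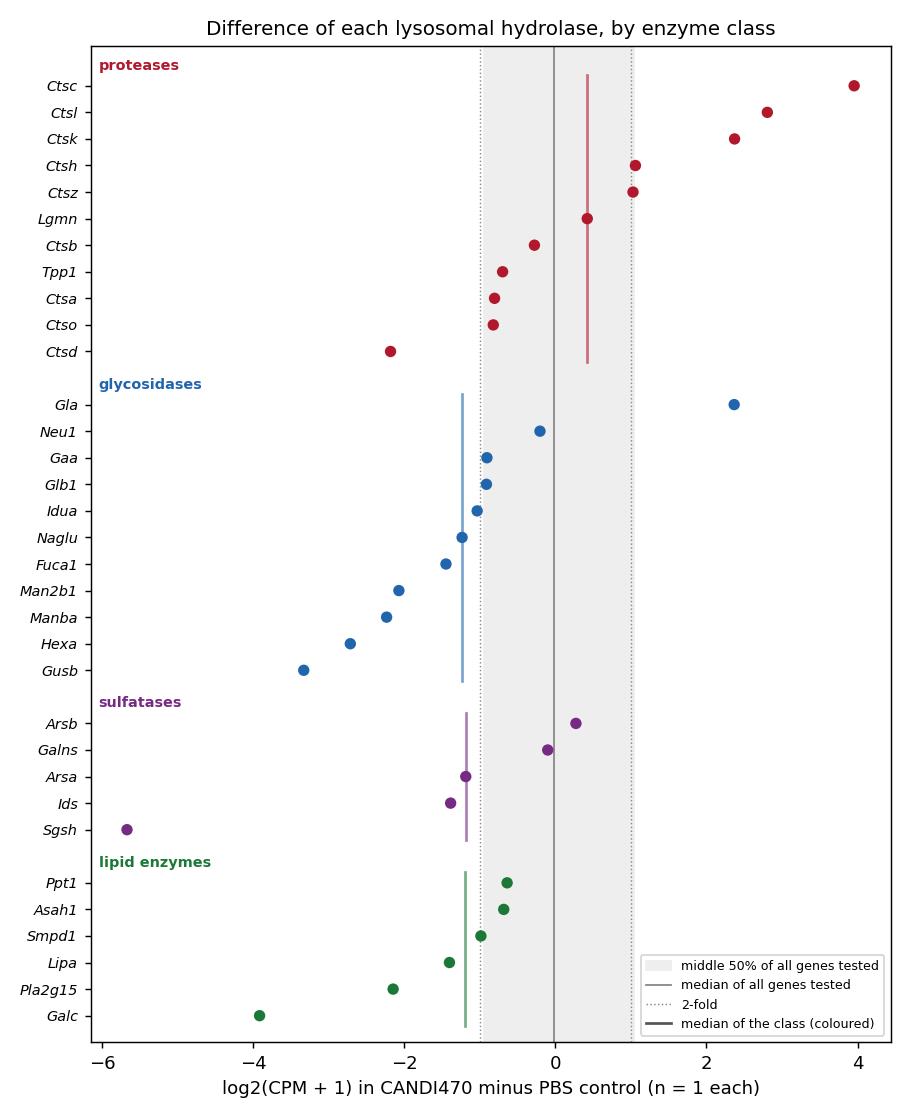
Difference of each gene, CANDI470 minus PBS control, on the log2(CPM + 1) scale (n = 1 each), with coloured lines for class medians, a grey band for the middle 50% of all 12779 genes tested and dotted lines at 2-fold. The protease median is 0.42, whereas the medians of glycosidases, sulfatases and lipid enzymes lie between -1.23 and -1.19.

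Set against each other within this list, the proteases had a median difference of 0.42 and the other 22 enzymes of -1.21. That is a gap of 1.63 on the log2 scale, and proteases outside the list, given below, lay on both sides. Of the 22, 13, or 59.1%, were at least 2-fold lower and 1, or 4.55%, was higher. Of the 11 proteases 1, or 9.09%, was lower and 5, or 45.5%, were higher. Among all genes tested 23.6% were lower and 25.7% higher. With 1 sample a group this gap has no test. It ranged from 1.54 to 1.74 over the 11 alternatives of scaling, pseudocount, filter, gene length and composition. A change of scaling or filter moves both medians nearly alike, so those settings could hardly move the gap and do not show its stability. Counts of genes past 2-fold, in contrast, can move with scaling. Library totals and upper-quartile factors shifted the median of all genes to -0.69 and -0.38 and gave 22 lower and 4 higher genes each, but relative to that median both gave 14 lower and 6 higher.

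Summed levels set the proteases apart from the other classes as well, although the order among the other classes was not that of their medians. The proteases summed to 27138 CPM in CANDI470 and 26360.3 CPM in the PBS control, while in CANDI470 and the PBS control the glycosidases summed to 1573 and 3591 CPM, the sulfatases to 106 and 275 CPM and the lipid enzymes to 998 and 2587 CPM. As a share of the counts on the 33 genes, which needs no scaling, proteases took 91.0% in CANDI470 (exact interval 91.0 to 91.1%) and 80.3% in the PBS control (80.3 to 80.4%). Glycosidases took 5.28% in CANDI470 and 10.9% in the PBS control, and lipid enzymes 3.35% in CANDI470 and 7.88% in the PBS control. Within the proteases Ctsc and Ctsl took 12.5% and 12.4% of these counts in CANDI470, against 0.73% and 1.61% in the PBS control, while Ctsd took 3.97% in CANDI470 and 16.4% in the PBS control. The protease sum hence hid large opposite differences of its members.

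**Figure D3:**
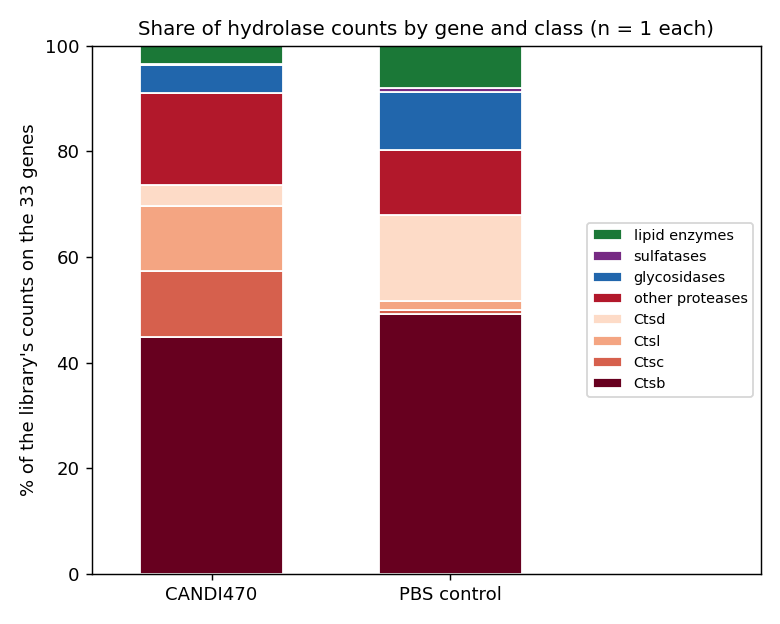
Percent of each library's counts on the 33 genes that fell to single proteases and to the enzyme classes, as stacked bars for CANDI470 on the left and the PBS control on the right (n = 1 each). Ctsb takes 44.8% in CANDI470 and 49.3% in the PBS control, and the bands of Ctsc and Ctsl are wide in CANDI470 where that of Ctsd is wide in the PBS control.

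Per kilobase of gene model, levels of different genes can be set side by side. Ctsb led in both libraries, with 2205 CPM per kilobase in CANDI470 and 2672 in the PBS control. In CANDI470 it was followed by Ctsz at 1370.2, Lgmn at 804, Ctsc at 642 and Ctsl at 571 CPM per kilobase, and the first enzyme that is no protease was Gla at rank 7 with 231. In the PBS control it was followed by Ctsd at 2282, Hexa at 714, Ctsz at 672 and Lgmn at 600.0 CPM per kilobase. Ctsk moved farthest up, to rank 16 in CANDI470 against rank 32 in the PBS control, and Ctsc stood at rank 4 against 18. Gusb moved farthest down, to rank 24 in CANDI470 against rank 8 in the PBS control. Ranks within 2 places of each other were kept by 14 of the 33 genes.

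**Figure D4:**
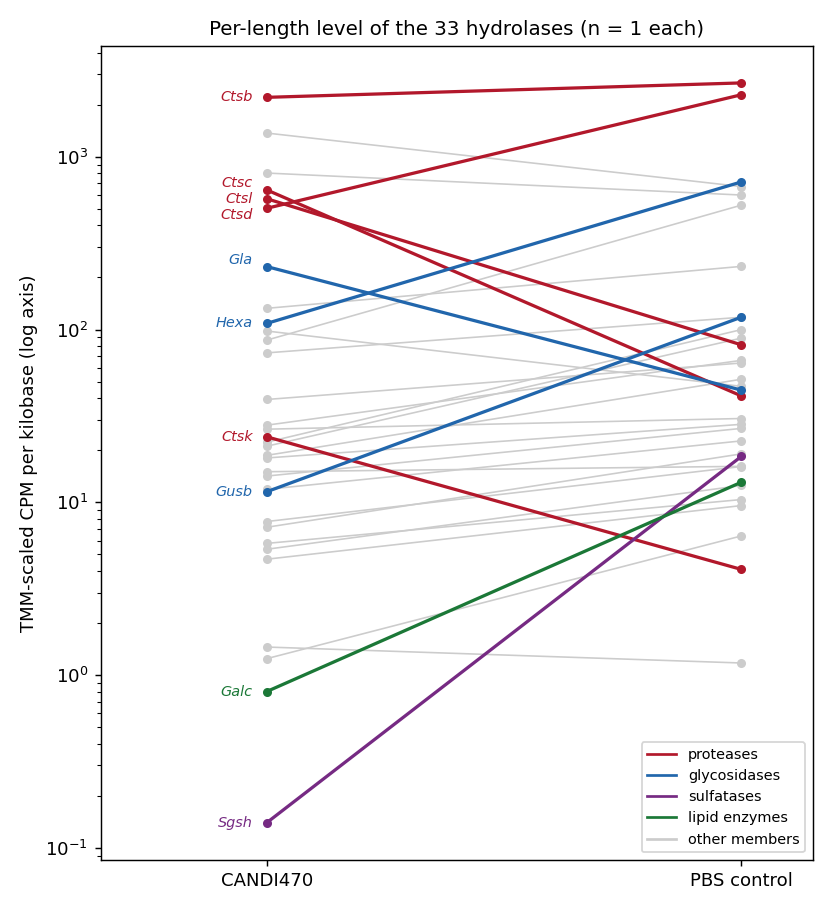
TMM-scaled CPM per kilobase of each table's gene model on a log axis for the 33 genes, CANDI470 at the left and the PBS control at the right (n = 1 each), with 10 named genes in the colour of their class and the others in grey. Lines of Ctsc, Ctsl, Ctsk and Gla descend towards the PBS control, while those of Ctsd, Hexa, Gusb, Galc and Sgsh ascend.

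Base composition moved with the differences. Over all tested genes the median difference was 0.53 in the tenth with the lowest GC content and -0.82 in the tenth with the highest, at median GC contents of 39.4% and 59.2% of the longest transcript. Among the 33 genes, the 6 higher ones had a median GC content of 47.6%, the 14 lower ones 54.2% and the 13 others 51.1%. Single genes went against this order, since Galc with 38.3% GC was 16.3-fold lower and Ctsz with 57.3% was higher. Removing trends in GC content and transcript length left 6 higher and 13 lower genes, and 28 of the 33 kept their side of 2-fold. How far library composition contributed to any single gene was not tested.

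A further 31 lysosomal hydrolases outside the list, of which 30 passed the minimum, had 8 genes at least 2-fold higher and 7 lower, or 26.7% and 23.3%, near the 25.7% and 23.6% of all genes, and a median of -0.46. The higher ones were led by the phospholipase-like Plbd1, with 1833 counts in CANDI470 and 27 in the PBS control, and by Acp5. The lower ones were led by Dnase2a, the acid DNase that digests engulfed nuclei, at 23.3 CPM in CANDI470 and 217 CPM in the PBS control. Next came Ctsf at 4.73 CPM in CANDI470 and 21.1 in the PBS control, with gene models of 5041 bases for CANDI470 and 1975 for the control. Ctss, the cathepsin that trims the invariant chain, had 4663 CPM in CANDI470 and 3140 CPM in the PBS control, a log2 difference of 0.57. Ctss falls outside the rule for named genes and is given as the remaining abundant cysteine cathepsin.

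Activators and cofactors of these enzymes were near the share of all genes as well. Of the 8, Npc2 and Clcn7 were higher by 2-fold or more and Scarb2 and Sumf2 lower, or 25% each way, with a median of 0.23. Npc2, which carries cholesterol inside the lysosome, had 3780 CPM in CANDI470 and 1203 CPM in the PBS control, and the chloride-proton exchanger Clcn7 had 437 CPM in CANDI470 and 181 in the PBS control. Scarb2, the carrier of glucocerebrosidase, had 86.0 CPM in CANDI470 and 182 CPM in the PBS control, and Sumf2, a relative of the enzyme that activates sulfatases, had 4.82 CPM in CANDI470 and 13.4 in the PBS control.

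Among 10 inhibitors of cathepsins only 4 passed the minimum, 2 of them at least 2-fold higher and 1 lower. These are 50% and 25%, beside 25.7% and 23.6% of all genes tested. Cst7, the cystatin that enters lysosomes and restrains Ctsc, had 2217 counts or 68.5 CPM in CANDI470, against 38 counts or 1.05 CPM in the PBS control, a log2 difference of 5.08. Serpinb6b, a serpin and no cystatin, had 39.1 CPM in CANDI470 and 12.6 CPM in the PBS control. Whether it acts on the cathepsins described here was not examined, and the shares and median of the list include it. Cst3, the abundant secreted cystatin C, had 14868 counts or 459.5 CPM in CANDI470, against 50356 counts or 1390.5 CPM in the PBS control, a log2 difference of -1.60. The list's median was 0.96.

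Many lysosomal genes carry an E-box, read by the factors TFEB and TFE3, close to the start of transcription. RefSeq promoters of GRCm38.p6, from 250 bases before to 50 bases after the start, were at hand for 29 of the 33 genes. The palindrome CACGTG, which reads the same on both strands, was found in 10 of these 29, or 34.5%, beside 8.09% of all 27025 genes in the promoter table. The longer TCACGTGA, which contains it, was found in 3 of 29, beside 1.12% of all genes. By direction, CACGTG was found for 2 of 5 genes that were at least 2-fold higher, 4 of 14 that were lower and 4 of 10 within 2-fold. Stretches from 6 genes are shown because they hold the same core while their RNA differed in direction, with CACGTG in capitals and read 5′ to 3′ on the strand of the gene.
Gla: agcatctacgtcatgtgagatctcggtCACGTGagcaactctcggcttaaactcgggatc
Lgmn: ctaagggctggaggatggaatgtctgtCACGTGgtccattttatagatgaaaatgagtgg
Glb1: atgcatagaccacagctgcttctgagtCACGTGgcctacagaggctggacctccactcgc
Naglu: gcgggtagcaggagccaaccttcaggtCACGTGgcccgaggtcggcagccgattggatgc
Ctsd: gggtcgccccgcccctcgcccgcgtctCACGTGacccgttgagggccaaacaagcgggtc
Sgsh: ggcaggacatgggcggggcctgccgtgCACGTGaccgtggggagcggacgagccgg

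These stretches lie at chrX:134601167-134601226 (minus strand) for Gla, chr12:102439109-102439168 (minus) for Lgmn and chr9:114401003-114401062 (plus) for Glb1. Those of Naglu, Ctsd and Sgsh lie at chr11:101069994-101070053 (plus), chr7:142387893-142387952 (minus) and chr11:119355511-119355566 (minus). The core starts 194 bases before the start of transcription in Gla, 49 in Lgmn, 48 in Glb1, 73 in Naglu, 98 in Ctsd and 29 in Sgsh. Gla holds a second copy 227 bases before the start and Ctsd one at 245. Among the 10 genes with the core the CPM ratio ran from 7.00 for Ctsl to 0.0076 for Sgsh, while the promoter of Ctsc, with a ratio of 15.6, had no match in this window. A match describes letters in this window and is no measured binding site.

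Markers of several other blood cells were at least 2-fold higher in CANDI470, while those of B cells were lower. Among all genes tested 25.7% were at least 2-fold higher and 23.6% lower. Of 9 neutrophil markers 6 passed the minimum and all 6 were higher, with the list summing to 670.3 CPM in CANDI470 and 7.54 CPM in the PBS control. Of this sum Lcn2 made up 388 CPM in CANDI470 and 1.57 CPM in the PBS control. Below the minimum were Ly6g, Mpo and Elane. The defining Ly6g had 27 counts in CANDI470 and 0 in the PBS control. Mpo had 9 counts in CANDI470 and 12 in the PBS control, and Elane, a granule protease that Ctsc activates, 2 and 10. Of 7 mast cell and basophil markers 6 passed and all 6 were higher, summing to 46.0 CPM in CANDI470 and 3.62 CPM in the PBS control. Of 7 dendritic cell markers 5 passed and all 5 were higher, summing to 592 CPM in CANDI470 and 7.40 CPM in the PBS control, of which Ccr7 made up 433 CPM in CANDI470 and 0.0552 CPM in the PBS control. The 7 genes marking T and NK cells gave 3 higher and 1 lower, with Ncr1 at 0 counts in both libraries, and Il7r made up 915 of their 949 CPM in CANDI470 and 136 of 149.6 CPM in the PBS control. Of 4 B cell markers 1 passed and was lower, the list summing to 9.21 CPM in CANDI470 and 148.6 CPM in the PBS control. The part of such cells in the difference of Ctsc or of any other gene was not tested.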

How the data were processed

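Per the file headers, the authors deposited raw whole-number counts for each gene. They also deposited log2 values, which equal log2(count × a constant for each library + 1), the linear value matching within 0.1% for 100% of genes with a count. The submitters' processing notes name mm10, while aligner, counting tool, strandedness and annotation version are not given in the sources used here. Each control table holds 3 further sample columns, headed Control_2, empty_1 and empty_2, that match no sample record, and these were not analysed here. Columns were matched to samples by name.

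Counts on 51084 shared identifiers, held by both tables, were scaled with TMM factors (edgeR 4.0.16, R 4.3.3) from genes reaching 1 CPM in either library. The factors were 0.782 for CANDI470 and 1.28 for the PBS control. Differences are log2(CPM + 1), which understates folds of low genes. No test was run with 1 sample a group, and the exact intervals come from scipy 1.17.1. The interval half-width of the 32 genes whose counts reached 100 in each library was at most 0.25 on the log2 scale. The procedure was tested on simulated data. Other settings tried were the deposited log2 values, scaling by library totals, by upper-quartile factors or by DESeq2 1.42.0, a minimum of 5 CPM or no filter, pseudocounts of 0.1 or 5 CPM, levels per kilobase, equal gene lengths, and removal of GC and length trends over 20 bins each. GC content came from GENCODE transcripts of mm10. Members, classes and lists were chosen with earlier results of these data known. All 33 members are named, and of each other list up to 2 genes per direction that differed by at least 2-fold and lay farthest out. Markers of other cells are named as examples. The value of 1 macrophage marker is not reported here.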

Additional observations from a re-analysis of the deposited data

How the results depend on the processing

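No paired analysis was possible because each group is 1 sample, and for the same reason no replicate could be left out. The median difference of the 33 genes, -0.91 as reported, was -0.82 with DESeq2 size factors, -1.61 with library totals, -1.27 with upper-quartile factors, -1.01 with no filter and -0.62 with GC and length trends removed. In the same order the protease median, 0.42 as reported, was 0.51, -0.29, 0.052, 0.32 and 0.81. That of the other 22 enzymes, -1.21 as reported, was -1.13, -1.90, -1.57, -1.31 and -0.93, and -1.12 with a pseudocount of 5 CPM. The gap between both medians, 1.63 as reported, was 1.54 with a pseudocount of 5 CPM and 1.74 with GC and length trends removed. At least 2-fold lower were 22 genes with library totals and 22 with upper-quartile factors, against 14 as reported. Scalings shift all genes alike. For the other causes nothing was tested. No gene past 2-fold changed its direction under any of the 11 alternatives. The genes that changed their side of 2-fold with GC and length trends removed were Arsa, Idua and Naglu, then within it at -0.62, -0.53 and -0.14, and Asah1 and Ctso, then past it at -1.22 and -1.34. The lowest count, 20 for Sgsh in CANDI470, sets the widest interval, with a half-width of 0.67 on the log2 scale.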

Other observations

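Genes that route hydrolases to the lysosome differed in both directions. Of 6 genes of the mannose 6-phosphate route and its alternative, 2 exceeded the PBS control at least 2-fold, or 33.3%. The other 4, or 66.7%, lay as far below it. Among all genes tested these shares were 25.7% and 23.6%. The median difference of the 6 was -1.47, against -0.01 for all genes tested. M6pr, the small mannose 6-phosphate receptor, had 930.2 CPM in CANDI470 and 307 CPM in the PBS control, a log2 difference of 1.60, and Gnptab, which encodes the catalytic subunits of the phosphotransferase that starts the tag, had 143 CPM in CANDI470 and 55.4 in the PBS control. Its partner subunit Gnptg had 8.28 CPM in CANDI470 and 26.2 CPM in the PBS control. Nagpa, which uncovers the tag, had 18.4 CPM in CANDI470 and 80.4 CPM in the PBS control. Igf2r, the large receptor, had 52.1 CPM in CANDI470 and 139 in the PBS control. Sort1, a receptor that carries hydrolases without the tag, was lowest of the 6, with 254 counts or 7.85 CPM in CANDI470 and 2702 counts or 74.6 CPM in the PBS control. Gnptg, Igf2r and, below, Mitf and Tfe3 fall outside the rule for named genes and were chosen after their values were seen.

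Of 4 factors that bind the E-box of lysosomal genes 1 was at least 2-fold higher and 1 lower, or 25% each way, near the 25.7% and 23.6% of all genes. Tfec was the higher one, with 22.8 CPM in CANDI470 and 9.33 CPM in the PBS control, and Tfeb the lower one, with 542 counts or 16.8 CPM in CANDI470 and 2664 counts or 73.6 CPM in the PBS control. Mitf had 113 CPM in CANDI470 and 57.2 CPM in the PBS control, and Tfe3 had 113 CPM in CANDI470 and 145 in the PBS control, both within 2-fold. The level of an RNA says nothing of where such a factor lies in the cell.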
